A study of Mus musculus with 6 samples.

Results

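The regions described here are 828 intergenic ChIP-seq peaks of tagged GLI3R that were called after doxycycline induction and had no counterpart in the untreated peak list. They were chosen by 3 criteria applied to the deposited peak lists: an interval on chromosomes 1 to 19 or X of the doxycycline list, no overlap of 1 bp or more with any interval of the untreated list, and a midpoint outside every protein-coding gene, over 1 kb and at most 50 kb from the nearest one. They made up 828 of the 3640 doxycycline peaks and 23.2% of the 3567 doxycycline peaks without an untreated counterpart (exact 95% interval 21.8 to 24.6). The untreated list was longer, with 4379 peaks, of which 4304 had no doxycycline counterpart. Of these untreated-only peaks, 1019 (23.7%) met the same location rule, a share inside the interval of the doxycycline one. Presence in one list and absence from the other chose the 828. A contrast in peak strength between the conditions is therefore given below only as a description, with no test.

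The cells were cardiac progenitors differentiated from mouse embryonic stem cells (strain label A2Lox.cre) of the line labelled GLI3R-FTA, harvested on day 6. In the doxycycline group the cells received 500 ng/ml doxycycline for 24 hours, from day 5 to day 6, and in the untreated group the same line received none, so that both groups carried the inducible tagged GLI3R. Tagged protein was recovered on streptavidin beads through its Avi-tag, with 2 pull-downs and 1 input library per condition, 6 libraries in all. The deposited processed data used here are 1 peak list per condition, so no value below has a replicate spread, and the intervals given cover counting error only. The lists hold no expression values, so the cell type label could not be checked against marker genes, and the labels do not say whether the line was 1 clone. Sequencing depth per library is unknown from these files.

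GLI3 is a zinc-finger transcription factor of the Hedgehog pathway. Without Hedgehog ligand it is processed, through the primary cilium, into a truncated repressor, GLI3R, that keeps the DNA-binding zinc fingers and lacks the activation domain, and GLI factors recognise the motif GACCACCCA. In the developing heart, Hedgehog signalling to progenitors of the second heart field is known for its part in atrial septation and outflow tract growth.

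The genome sequence under most of the peaks was not used here. RefSeq sequence (GRCm38.p6, the assembly of mm10) was at hand for windows of 300 bases at gene starts, and 7 of the 828 peaks overlapped such a window of a long non-coding RNA (lncRNA) gene. The sequences of 5 of them are shown to let a reader see the DNA under peaks of different strength, each 5′ to 3′ on the strand of the lncRNA gene, with capitals for the bases inside the peak. They come from the windows of Gm40371 (chr6:47651271-47651570, minus strand), 6530402F18Rik (chr2:29252944-29253243, minus strand), 1700096K18Rik (chr5:25529768-25530067, plus strand), Gm40164 (chr3:145632924-145633223, minus strand) and Gm34350 (chr7:67802939-67803238, plus strand).
Gm40371, 21.2-fold peak: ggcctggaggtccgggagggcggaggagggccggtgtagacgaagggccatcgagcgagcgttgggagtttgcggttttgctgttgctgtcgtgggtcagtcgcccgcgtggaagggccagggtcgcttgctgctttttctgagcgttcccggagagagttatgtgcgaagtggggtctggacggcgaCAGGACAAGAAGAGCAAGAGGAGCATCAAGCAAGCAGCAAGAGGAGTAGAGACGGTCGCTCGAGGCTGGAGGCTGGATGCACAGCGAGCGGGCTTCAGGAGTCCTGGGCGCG
6530402F18Rik, 9.50-fold peak: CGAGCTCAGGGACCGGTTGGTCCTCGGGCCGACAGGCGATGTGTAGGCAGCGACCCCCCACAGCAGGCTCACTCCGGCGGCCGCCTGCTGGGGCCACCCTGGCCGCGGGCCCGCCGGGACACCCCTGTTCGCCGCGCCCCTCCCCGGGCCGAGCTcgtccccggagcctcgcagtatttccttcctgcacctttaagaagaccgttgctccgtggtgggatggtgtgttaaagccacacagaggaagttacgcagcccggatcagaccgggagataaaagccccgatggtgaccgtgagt
1700096K18Rik, 6.58-fold peak: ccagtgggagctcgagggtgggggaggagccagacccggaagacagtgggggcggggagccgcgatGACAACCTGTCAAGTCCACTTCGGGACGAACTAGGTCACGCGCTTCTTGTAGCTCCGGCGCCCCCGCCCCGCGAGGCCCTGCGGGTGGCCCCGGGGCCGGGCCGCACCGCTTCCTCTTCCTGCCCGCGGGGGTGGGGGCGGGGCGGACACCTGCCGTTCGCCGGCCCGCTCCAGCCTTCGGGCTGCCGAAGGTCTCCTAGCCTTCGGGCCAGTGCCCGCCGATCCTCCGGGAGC
Gm40164, 5.12-fold peak: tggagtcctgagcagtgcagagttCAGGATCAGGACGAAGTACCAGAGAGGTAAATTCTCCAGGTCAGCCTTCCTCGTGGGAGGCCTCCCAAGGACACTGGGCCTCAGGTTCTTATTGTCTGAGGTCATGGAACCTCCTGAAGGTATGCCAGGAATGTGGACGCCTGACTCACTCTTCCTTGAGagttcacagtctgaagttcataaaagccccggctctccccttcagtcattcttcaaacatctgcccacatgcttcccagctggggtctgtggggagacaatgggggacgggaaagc
Gm34350, 4.01-fold peak: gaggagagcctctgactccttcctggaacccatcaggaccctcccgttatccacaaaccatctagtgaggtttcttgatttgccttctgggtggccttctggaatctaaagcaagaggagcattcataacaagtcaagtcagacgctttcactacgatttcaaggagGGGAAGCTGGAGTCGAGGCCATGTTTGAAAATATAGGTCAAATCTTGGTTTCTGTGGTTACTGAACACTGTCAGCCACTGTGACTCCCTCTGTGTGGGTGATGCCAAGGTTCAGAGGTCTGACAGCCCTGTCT
The nearest protein-coding genes of these peaks were Gm40369 at 1.66 kb, Ntng2 at 5.08 kb, Cct8l1 at 12.0 kb, Ccn1 at 13.9 kb and Synm at 43.4 kb. Of the peak bases inside each window, G and C made up 61.6% for Gm40371, 77.4% for 6530402F18Rik, 74.4% for 1700096K18Rik, 54.4% for Gm40164 and 50.4% for Gm34350. The Gm40371 window holds 112 bases of its peak but not the summit, while the other 4 windows hold the summit. None of the 5 windows holds GACCACCCA on either strand, and those of 6530402F18Rik and Gm34350 each hold 1 copy with 1 mismatch. The copy lies inside the peak for 6530402F18Rik and outside it for Gm34350.

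A window of a protein-coding start was overlapped by a doxycycline peak at 13 genes that also had an intergenic peak of the set within 50 kb among the genes whose start window was at hand. The share of all genes with a doxycycline peak over a start window was not counted, so the 13 cannot be set against a background. These start peaks lie outside the intergenic set. The windows of 3 such genes are shown: Acp6 (lysophosphatidic acid phosphatase; chr3:97158527-97158826, plus strand), whose start peak was the strongest at 10.6-fold, Smad6 (an inhibitor of BMP signalling; chr9:64022010-64022309, minus strand), which had 3 intergenic peaks, and Uaca (chr9:60794192-60794491, plus strand), the only one of the 13 with the full GLI motif in its window. Capitals mark the bases inside the start peak for Acp6 and Smad6, and the motif, at bases 50 to 58 counted from the 5′ end of the window, for Uaca.
Acp6: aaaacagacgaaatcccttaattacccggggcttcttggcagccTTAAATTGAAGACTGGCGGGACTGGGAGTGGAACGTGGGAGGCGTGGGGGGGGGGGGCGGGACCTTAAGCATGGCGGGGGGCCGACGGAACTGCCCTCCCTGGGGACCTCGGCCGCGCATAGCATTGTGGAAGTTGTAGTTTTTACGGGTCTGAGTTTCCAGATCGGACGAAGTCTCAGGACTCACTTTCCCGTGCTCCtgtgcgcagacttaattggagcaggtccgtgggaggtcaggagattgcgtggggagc
Smad6: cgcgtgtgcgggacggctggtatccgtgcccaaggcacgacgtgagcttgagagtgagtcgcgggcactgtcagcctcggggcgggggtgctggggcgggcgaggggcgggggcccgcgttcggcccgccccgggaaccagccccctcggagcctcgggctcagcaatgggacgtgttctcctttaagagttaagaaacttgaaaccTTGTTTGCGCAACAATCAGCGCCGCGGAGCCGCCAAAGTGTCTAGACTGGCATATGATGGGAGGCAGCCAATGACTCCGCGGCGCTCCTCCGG
Uaca: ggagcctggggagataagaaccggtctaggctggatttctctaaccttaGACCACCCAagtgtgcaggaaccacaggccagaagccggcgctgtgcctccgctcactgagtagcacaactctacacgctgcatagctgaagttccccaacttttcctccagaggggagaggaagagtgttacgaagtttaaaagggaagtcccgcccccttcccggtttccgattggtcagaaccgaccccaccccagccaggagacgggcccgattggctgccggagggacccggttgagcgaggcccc
The Uaca start peak was 5.85-fold enriched and covered the motif, and the Smad6 start peak was 5.10-fold enriched. The intergenic peak near Uaca lay 27.8 kb upstream and was 13.9-fold enriched. That of Acp6 lay 4.59 kb downstream and was 6.58-fold enriched.

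Peak strength is given by 3 deposited or derived values: the authors' fold enrichment at the summit, their −log10 q, and the pileup, the number of fragments over the summit worked back from fold and p. Across the 828 peaks the fold ran from 3.93 to 30.5 with a median of 5.81 and quartiles at 4.77 and 6.81. The −log10 q ran from 1.45 to 64.1 with a median of 4.17, and the pileup from 5 to 43 fragments with a median of 7. Most of the set therefore stands on few fragments: 199 peaks (24.0%) had the smallest pileup of 5, 174 (21.0%) had 6, and 44 (5.31%) had 15 or more. Peak widths ran from 137 to 1051 bp, with a median of 161 bp.

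The strongest of the 828 by −log10 q lay 35.3 kb upstream of Blcap, at chr2:157601500-157601886, with a fold of 30.5 and 42 fragments at the summit. The next, at chr4:147969250-147969774, was 28.8-fold enriched with 43 fragments and lay 16.3 kb upstream of Nppb and 31.2 kb from Nppa, the neighbouring genes for the natriuretic peptides of heart muscle. The gene on its other side, 2510039O18Rik, was 22.2 kb away. Peaks near Pwwp2b (22.0-fold at 32.4 kb, chr7:139299476-139299762), Wsb1 (21.5-fold at 38.6 kb, chr11:79200598-79200884) and Gm40369 (21.2-fold at 1.66 kb, chr6:47651093-47651382) followed. The midpoint of the Gm40369 peak lay inside the lncRNA gene Gm40371, and the peak spanned the start of that gene, whose window is printed above. Its nearest protein-coding gene on the other side, at 56.0 kb, was Ezh2, the methyltransferase of Polycomb complex PRC2.

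**Figure D1:**
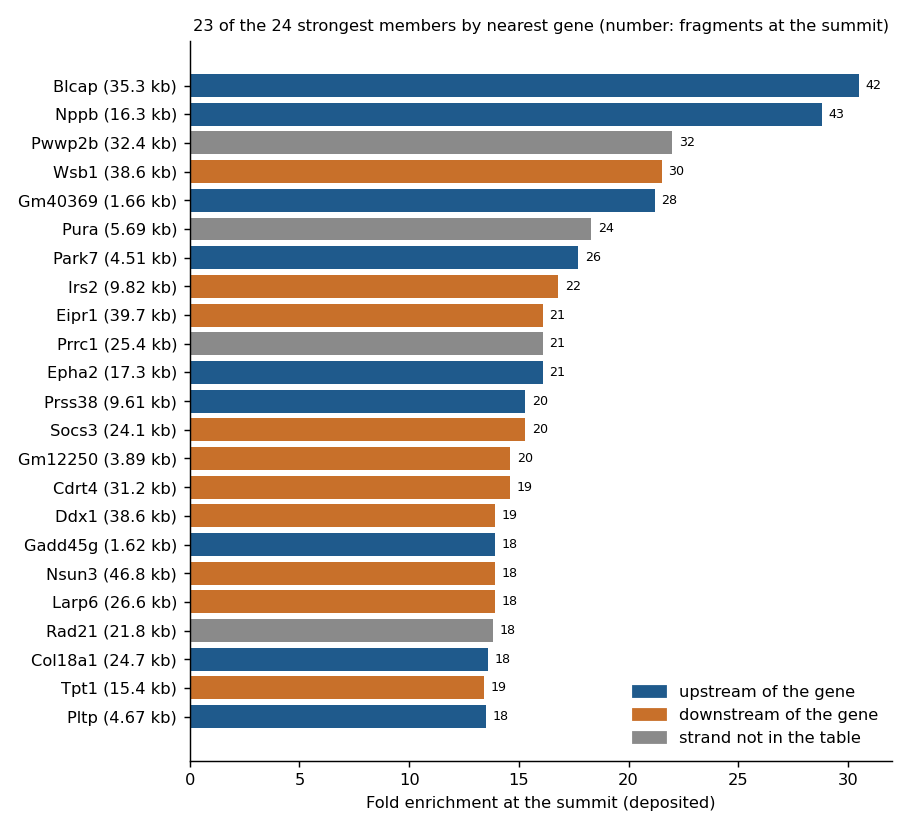
Fold enrichment at the summit (horizontal axis, as deposited) of 23 of the 24 strongest peaks of the set by −log10 q, labelled by nearest protein-coding gene and distance in kb. The number beside each bar is the pileup in fragments and colour gives the side of the gene; values run from 30.5-fold near Blcap to 13.4-fold near Tpt1, and 12 of those shown lie over 20 kb from the gene.

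The others of the 24 strongest were between 18.3-fold and 13.4-fold. Their nearest genes included Irs2, an adaptor of the insulin and IGF receptors (16.8-fold, 9.82 kb downstream, chr8:10974635-10975079), Epha2, an ephrin receptor (16.1-fold, 17.3 kb upstream), Socs3, an inhibitor of cytokine signalling (15.3-fold, 24.1 kb downstream, chr11:117941812-117942151), and Gadd45g, a growth arrest and DNA damage-inducible gene (13.9-fold, 1.62 kb upstream, chr13:51844969-51845135). Rad21, which encodes a cohesin subunit, had a 13.8-fold peak at 21.8 kb. Others were near Pura (18.3-fold, 5.69 kb), Park7 (17.7-fold, 4.51 kb upstream, with Tnfrsf9 5.72 kb away on the other side), Eipr1 (16.1-fold, 39.7 kb), Prrc1 (16.1-fold, 25.4 kb), Prss38 (15.3-fold, 9.61 kb) and Gm12250 (14.6-fold, 3.89 kb). The last 7 lay near Cdrt4 (14.6-fold), Ddx1, Nsun3 and Larp6 (13.9-fold each), Col18a1 (13.6-fold), Pltp (13.5-fold) and Tpt1 (13.4-fold), with Larp6 sharing its peak with Uaca at 27.8 kb. The 24 had no common side or distance: 9 were upstream, 10 downstream and 5 near a gene whose strand the table does not give, while 9 lay within 10 kb of the gene and 12 over 20 kb away. A gene within 50 kb on the other side was present for 10 of them, and an untreated peak within 50 kb for 3.

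Of the 21631 protein-coding genes in the table, 1583 (7.32%) had at least 1 of the 828 peaks within 50 kb, 1475 of them exactly 1, 97 exactly 2 and 11 exactly 3. Counting peaks whose −log10 q was 5 or more, 610 genes (2.82%) had one. Untreated-only peaks in the same kind of location lay within 50 kb of 1814 genes (8.39%). A gene with long intergenic flanks offers more room for such a peak: the sequence in which one could lie had a median of 62.3 kb per gene with a peak, 70.9 kb per gene with an untreated-only peak and 52.0 kb over all genes. The gene lists below are therefore given both as shares of genes and as peaks per 10 Mb of that sequence, beside 13.9 per 10 Mb (exact Poisson 95% interval 13.0 to 14.9) around all genes and 17.1 (16.1 to 18.2) for untreated-only peaks. Intergenic peaks were assigned by distance alone, and no list was tested. The lists were chosen with earlier results of these data known, so their shares and intervals are descriptions and do not measure enrichment.

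Among genes of the Hedgehog pathway itself, the share with a peak was 4.17% (0.105 to 21.1), an interval that includes the share of all genes. Of 24 listed ligands, receptors, transducers and GLI factors, 1 had a peak of the set within 50 kb. A doxycycline-only peak inside the gene or within 1 kb of it, a different kind of location, was present at 8 of the 24, where 6.82% of all genes had one. The gene with a peak of the set was Gas1, a cell-surface co-receptor for Hedgehog ligands, with a 6.58-fold peak 48.0 kb upstream (chr13:60225405-60225566). One of the 24 had an untreated-only intergenic peak. The flanks held 8.86 peaks of the set per 10 Mb (0.224 to 49.3). Genes for the primary cilium, where the pathway is transduced, had peaks near 4 of 22 (18.2%, 5.19 to 40.3), an interval that includes the share of all genes. These peaks were all below a −log10 q of 5: Rab23 (5.12-fold, 4.22 kb), Kif3a (5.12-fold, 37.8 kb), Tmem67 (4.39-fold, 16.0 kb) and Ttbk2 (4.35-fold, 7.04 kb). Cilium genes have short intergenic flanks (median 30.9 kb per gene), which held 52.2 peaks of the set per 10 Mb (14.2 to 134), against 26.1 untreated-only peaks (3.16 to 94.2). The first of these densities rests on 4 peaks of 5 or 6 fragments, and its lower limit is just above the 13.9 around all genes.

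Regulators known to respond to GLI factors had peaks near 9 of 28 genes (32.1%, interval 15.9 to 52.4), and 7 of the 28 had one with −log10 q of at least 5. Untreated-only peaks lay near 4. In their flanks the density was 54.5 per 10 Mb (27.2 to 97.6) for the set and 19.8 (5.40 to 50.8) for untreated-only peaks. Ccnd2, a G1 cyclin, had a 10.2-fold peak 1.22 kb away (chr6:127153233-127153579) and also 1 untreated-only peak within 50 kb. Tbx3, a T-box repressor of the cardiac conduction lineage, had a 10.2-fold peak at 18.7 kb (chr5:119651630-119651939) and a 5.12-fold peak at 20.5 kb on the opposite side. Hand2, a bHLH factor of the second heart field, had a 9.93-fold peak at 9.53 kb (chr8:57333954-57334149), which touched the start window of the lncRNA gene Gm34030 by 36 bases, and a 4.01-fold peak at 40.7 kb. Foxf1, Foxc2 and Foxl1, neighbouring forkhead genes, shared 1 peak of 6.58-fold, 3.53 kb from Foxf1, 35.3 kb from Foxc2 and 46.8 kb from Foxl1, so these 3 genes are not independent counts. Fst, an activin antagonist (5.12-fold, 7.10 kb), and Zfpm1, a GATA cofactor (4.31-fold, 12.0 kb), had weaker peaks.

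**Figure D2:**
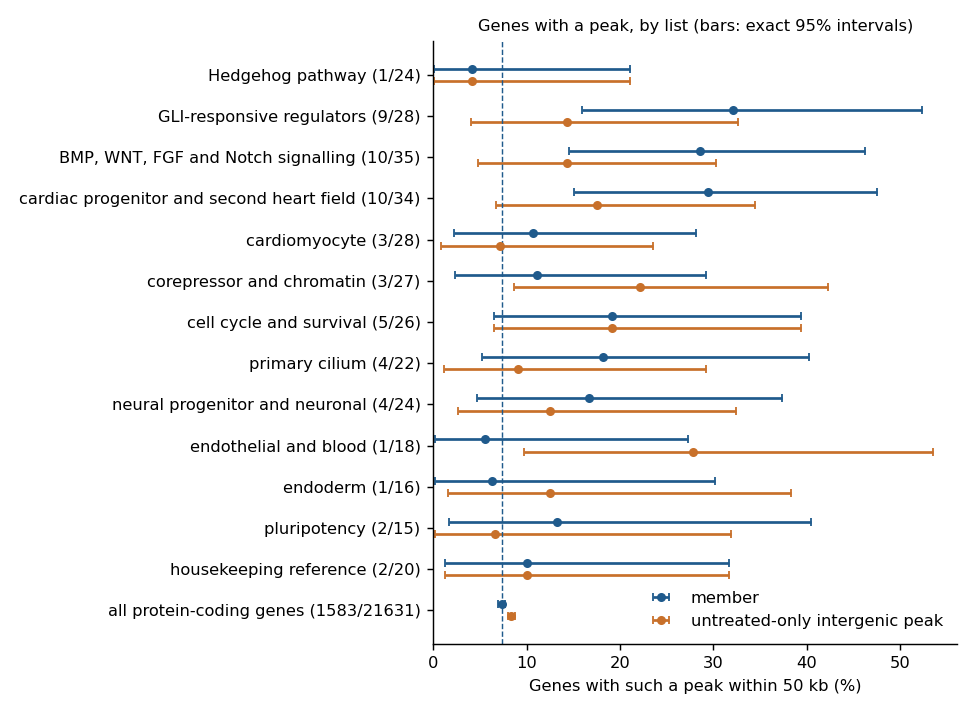
Share of the genes of each list (horizontal axis, %) with a peak of the set (blue) or an untreated-only intergenic peak (orange) within 50 kb, with exact 95% binomial intervals; the fraction after each name counts genes with a peak of the set, and the dashed line marks the 7.32% of all genes. The blue intervals of GLI-responsive regulators, of BMP, WNT, FGF and Notch signalling and of cardiac progenitor genes lie above the line, while that of Hedgehog pathway genes includes it. These lists share genes, and neighbouring genes can share a peak, so their shares are not independent and the intervals do not allow for this. The lists were chosen with earlier results of these data known, and no list was tested.

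Genes of the BMP, WNT, FGF and Notch pathways had peaks near 10 of 35 (28.6%, 14.6 to 46.3), 5 of them with a −log10 q of at least 5, and untreated-only peaks near 5. The density was 52.4 per 10 Mb (28.6 to 87.9) against 18.7 (6.08 to 43.7) for untreated-only peaks. Of the 10 genes, of which Hes1 is also in the GLI-responsive list, 6 had a doxycycline-only peak inside the gene or within 1 kb. That share was 9.73% over all 1583 genes with a peak of the set and 6.82% over all genes. Among the BMP ligands and inhibitors, Smad6 had 3 peaks, described below, Bmp7 had a 6.95-fold peak at 18.5 kb and Nog, an extracellular BMP antagonist, a 5.12-fold peak at 2.09 kb. Id2, a BMP-responsive inhibitor of bHLH factors, had an 11.5-fold peak 2.35 kb upstream (chr12:25098296-25098594) and a 12.5-fold doxycycline-only peak 0.775 kb from the gene. Of the WNT genes, the ligand Wnt11 had a 7.97-fold peak at 37.3 kb, the transcription factor Lef1 a 5.12-fold peak at 24.8 kb and the antagonist Sfrp1 a 5.12-fold peak at 11.4 kb. Fgf10, a ligand made in second heart field cells, and Fgfr1, an FGF receptor, each had a 5.85-fold peak, at 44.5 and 46.4 kb. Of the 10 genes, Bmp7, Lef1 and Fgf10 each also had 1 untreated peak inside the gene or within 50 kb.

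The list of genes of cardiac progenitors and the second heart field had peaks near 10 of its 34 (29.4%, 15.1 to 47.5), 6 with a −log10 q of at least 5, and untreated-only peaks near 6. Their flanks held 50.7 peaks of the set per 10 Mb (27.0 to 86.8) and 23.4 untreated-only peaks (8.59 to 51.0). This list shares Hand2, Tbx3, Foxf1, Foxc2 and Fgf10 with the lists above, so its count is not independent of theirs. Of its own genes, Hoxb1 had 2 peaks, 7.24-fold at 3.20 kb (chr11:96371377-96371539) and 5.24-fold at 8.83 kb, and Isl1, a marker of second heart field progenitors, a 5.90-fold peak at 4.13 kb (chr13:116313703-116313937). Gata6 had peaks of 5.12-fold at 16.4 kb and 4.39-fold at 7.20 kb. Cardiomyocyte genes, for contrast, had peaks near 3 of 28 (10.7%, 2.27 to 28.2): Nppa and Nppb shared the 28.8-fold peak and Myl2, a ventricular myosin light chain, had a 7.31-fold peak at 2.72 kb, with 1 untreated-only peak within 50 kb. The cardiomyocyte density was 15.6 per 10 Mb (1.89 to 56.3), the same as for untreated-only peaks.

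Cell cycle and survival genes had peaks near 5 of 26 (19.2%, 6.55 to 39.4), an interval that includes the share of all genes. Untreated-only peaks lay near the same number, 5. Their flanks held 41.4 peaks of the set per 10 Mb (15.2 to 90.2) and 34.5 untreated-only peaks (11.2 to 80.6). The first of these densities rests on 6 peaks, and its lower limit is just above the 13.9 around all genes. The strongest was the 10.2-fold peak near Ccnd2, which the GLI-responsive list also counts. Igf1r had peaks of 9.50-fold at 41.1 kb and 8.04-fold at 1.08 kb, Cdkn1a 8.04-fold at 34.1 kb, Ccnb1 5.85-fold at 28.9 kb and Mcl1 5.76-fold at 5.10 kb. Corepressor and chromatin genes had peaks near 3 of 27 (11.1%, 2.35 to 29.2) and untreated-only peaks near 6. Their flanks held 19.3 peaks of the set per 10 Mb (3.97 to 56.3). The intervals of this share and this density include the values of all genes. The untreated-only density had an interval of 18.1 to 92.6, whose lower limit is just above the 17.1 around all genes. Tle1, a Groucho-family corepressor of this list, had a 4.39-fold peak at 1.37 kb. Rbpj, the DNA-binding effector of Notch, had a 4.33-fold peak at 34.7 kb. Neural genes had peaks near 4 of 24 (the strongest near Rbfox3, 10.2-fold at 30.2 kb), endothelial and blood genes near 1 of 18 (Sox18, 6.58-fold at 2.13 kb) against 5 with an untreated-only peak, endoderm genes near 1 of 16 (Gata6), pluripotency genes near 2 of 15 (Sox2 and Tbx3) and housekeeping genes near 2 of 20 (Rpl13a, 7.10-fold, and Actb, 6.58-fold). Densities of the set in these 5 lists ran from 8.25 per 10 Mb (endothelial and blood) to 27.6 (pluripotency), and the intervals of their shares and densities all include the values of all genes. In the untreated list, 2 lists had share intervals above the 8.39% of all genes: endothelial and blood genes (27.8%, 9.69 to 53.5) and corepressor and chromatin genes (22.2%, 8.62 to 42.3).

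Smad6, Hes1 and Cxxc5 were the genes that were the nearest gene of 3 of the 828 peaks. Smad6, transcribed on the minus strand of chromosome 9, had a 12.8-fold peak 20.1 kb downstream (chr9:63932728-63933187, 17 fragments), a 7.31-fold peak 2.48 kb downstream and an 8.47-fold peak 23.2 kb upstream. Doxycycline-only peaks of 9.50-fold inside the gene and of 5.10-fold at its start bring the locus to 5, and no untreated peak lay within 50 kb. Hes1, a Notch-responsive repressor that GLI factors are also known to regulate, was flanked by peaks of 8.04-fold at 1.69 kb and 7.31-fold at 2.56 kb on opposite sides, with a 5.12-fold peak at 23.6 kb. The 8.04-fold Hes1 peak was the widest of the 828, at 1051 bp with 4 deposited summits (chr16:30063143-30064193), and a further 8.20-fold doxycycline-only peak lay inside the gene. At Cxxc5, a zinc-finger gene of WNT signalling, peaks of 6.01-fold, 9.57-fold and 4.12-fold lay 11.8, 12.8 and 13.2 kb from the gene, a cluster of 1.37 kb between the outer summits.

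**Figure D3:**
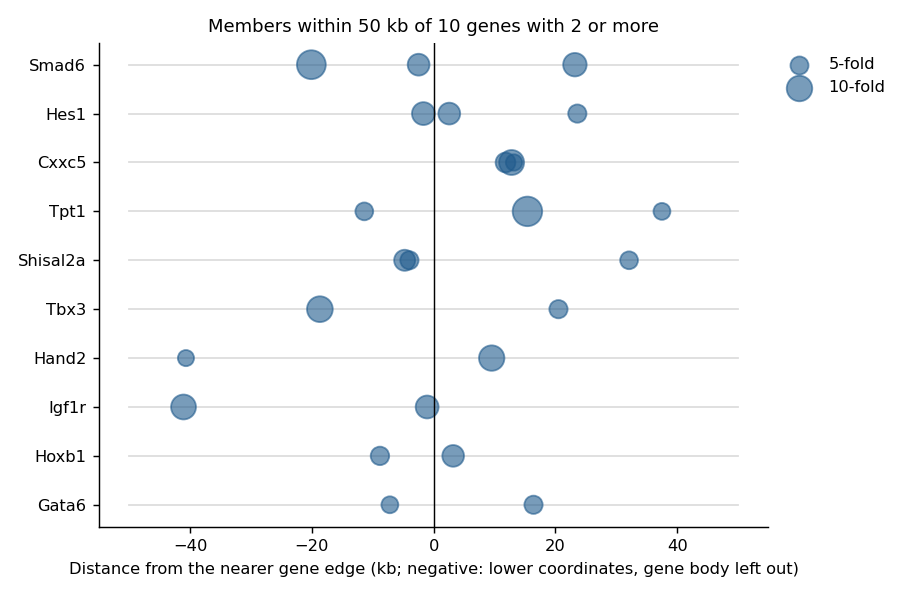
Position of the peaks of the set within 50 kb of 10 genes with 2 or more, as distance in kb from the nearer edge of the gene (negative values at lower coordinates, gene body left out); circle area is proportional to the fold. Smad6, Hes1, Tpt1, Shisal2a, Tbx3, Hand2, Hoxb1 and Gata6 have peaks on both sides. Those of Igf1r lie at lower coordinates only, and the 3 of Cxxc5 lie together between 11.8 and 13.2 kb.

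Genes with 3 peaks within 50 kb also came in neighbouring pairs that shared peaks. Tpt1, which encodes a translationally controlled tumour protein, had peaks of 4.87-fold at 11.4 kb, 13.4-fold at 15.4 kb and 4.39-fold at 37.5 kb, and the last 2 of these were also within 50 kb of Gtf2f2, a subunit of the general factor TFIIF. Nemp1 and Myo1a shared all 3 of their peaks of the set (7.86-fold, 6.58-fold and 4.39-fold). Tpt1, Gtf2f2, Nemp1 and Myo1a each also had 1 untreated peak inside the gene or within 50 kb. Shisal2a had peaks of 6.81-fold, 5.12-fold and 4.87-fold. Such neighbours were common: 119 of the 828 peaks (14.4%, 12.1 to 16.9) had another of the set within 50 kb, in 52 runs of 2 and 5 runs of 3, and 45 (5.43%, 3.99 to 7.20) had one within 10 kb. Of the 1019 untreated-only peaks in the same kind of location, 101 (9.91%, 8.15 to 11.9) had another within 50 kb and 20 (1.96%, 1.20 to 3.02) within 10 kb. Among the 301 peaks of the set with −log10 q of at least 5, 22 (7.31%, 4.64 to 10.9) had another of those within 50 kb.

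The set was compared with the 1019 untreated-only peaks that met the same location rule. By pileup, the ratio between the sets was widest at the upper end: 151 of the 828 (18.2%, 15.7 to 21.0) had 10 or more fragments against 18 of the 1019 (1.77%), and 44 against 1 had 15 or more. At 6 or more the counts were 629 and 359, and at 5 or more 828 and 661. The untreated list started at 4 fragments and the doxycycline list at 5, and the most frequent local expectation was 0.272 fragments in the untreated list against 0.368, so that 5 fragments over this background gave a fold of 4.72 in the untreated list and 4.39 in the doxycycline list. A −log10 q of at least 5 was reached by 301 (36.4%, 33.1 to 39.7) against 85 (8.34%, 6.72 to 10.2). How far sequencing depth shares in this contrast was not tested.

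**Figure D4:**
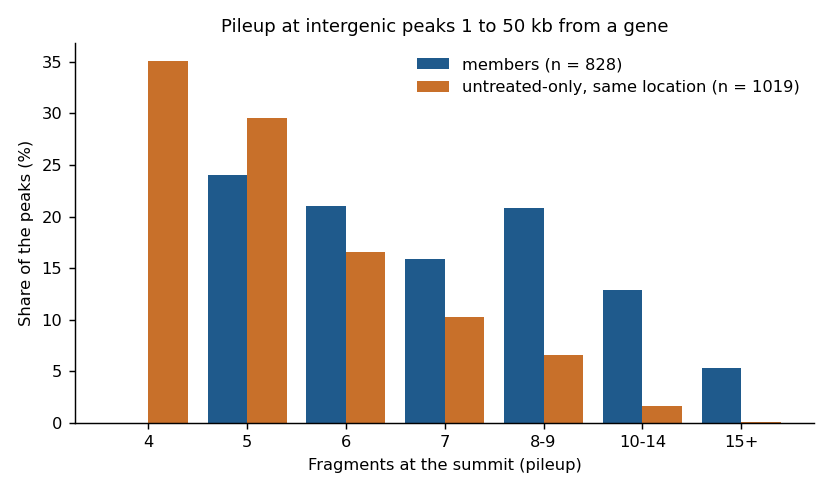
Share of peaks (vertical axis, %) by pileup, the number of fragments over the summit (horizontal axis), for the 828 peaks of the set (blue) and the 1019 untreated-only peaks of the same location class (orange). The blue bars exceed the orange ones from 6 fragments up, and 35.1% of the orange set stands at 4 fragments, a value absent from the doxycycline list.

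Within the doxycycline list, the share of peaks with −log10 q of at least 5 was 52.3% (43.4 to 61.1) among the 130 at gene ends (outside the gene, within 1 kb), 36.4% in the set, 33.8% (31.5 to 36.2) among the 1591 inside genes and 25.5% (22.9 to 28.3) among the 1018 over 50 kb from any gene. The median folds followed the same order, 6.44, 5.81, 5.78 and 5.12. The intervals of the set and of the peaks inside genes overlapped, and that of the far peaks lay below both. A fold of at least 10 was reached by 60 of the 828 (7.25%).

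Within the set, density differed little between bands of distance from the gene. Doxycycline-only peaks numbered 16.8 per 10 Mb of intergenic sequence (12.6 to 22.0) at 1 to 2 kb from a gene, 14.9 at 2 to 5 kb, 13.6 at 5 to 10 kb, 14.4 at 10 to 20 kb and 13.1 (11.6 to 14.6) at 20 to 50 kb, and neighbouring bands lay within each other's intervals. In the first kilobase, outside the set, the density was 37.0 (30.9 to 44.0). Untreated-only peaks ran from 15.1 in the first kilobase to between 16.1 and 17.8 beyond it. Of the 828, 314 (37.9%, 34.6 to 41.3) lay within 10 kb of the gene, against 358 of the 1019 (35.1%), and the median distance was 13.9 kb against 16.5 kb. The share within 10 kb did not climb with pileup: it was 39.7% at 5 fragments and 36.4% at 15 or more.

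**Figure D5:**
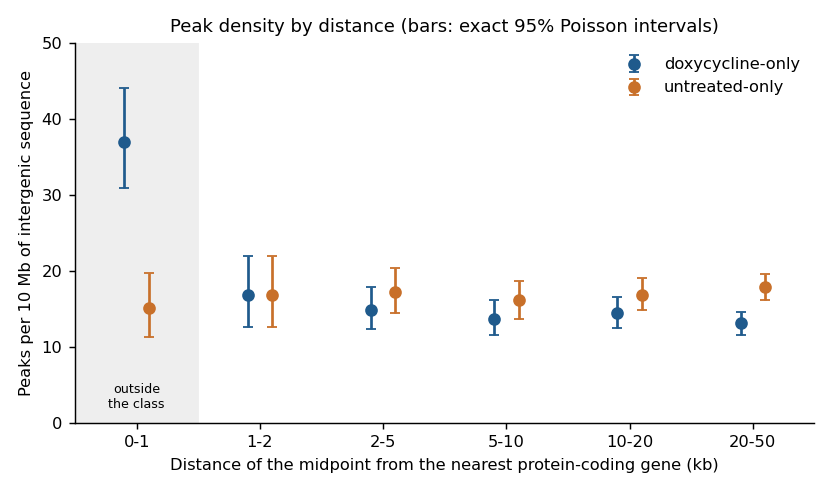
Peaks per 10 Mb of intergenic sequence (vertical axis) by distance of the midpoint from the nearest protein-coding gene (horizontal axis, kb) for doxycycline-only (blue) and untreated-only (orange) peaks, with exact 95% Poisson intervals. The grey band, within 1 kb, lies outside the set; beyond it the blue values stay between 13.1 and 16.8.

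The strand of the nearest gene was known for 642 of the 828 peaks. Of these, 337 (52.5%, 48.5 to 56.4) lay upstream and 305 downstream, with median folds of 5.68 and 5.85, and among peaks with −log10 q of at least 5, 107 of 230 (46.5%, 39.9 to 53.2) lay upstream. Untreated-only peaks lay upstream in 457 of 788 cases (58.0%, 54.5 to 61.5). A further gene within 50 kb on the other side was present for 342 peaks (41.3%), so the nearest gene was not the only candidate neighbour for these. An lncRNA gene held the midpoint of 111 (13.4%, 11.2 to 15.9), against 14.3% of the untreated-only peaks. By chromosome, autosomes held between 9.96 and 19.8 peaks per 10 Mb of eligible sequence (median 15.4), from chromosome 16 to chromosome 19, and X held 2.20, with 10 peaks, none of which reached a −log10 q of 5. The untreated-only values were 10.9 to 25.7 on autosomes and 7.72 on X.

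The 828 peaks had 775 distinct nearest genes, of which 725 had 1, 47 had 2 and 3 had 3. A doxycycline-only peak inside the gene or within 1 kb of it was present at 94 of the 775 (12.1%, 9.91 to 14.6), against 6.82% of all genes. For untreated-only peaks the corresponding share was 117 of 971 (12.0%) against 6.24% of all genes, so in both lists the nearest genes had the higher share. The full GLI motif lay in the start window of 3 of the 601 nearest genes with a window (0.499%, 0.103 to 1.45), against 37 of 17274 over all genes (0.214%) and 2 of 751 nearest genes of untreated-only peaks (0.266%). The full motif with at most 1 mismatch was in the windows of 8.49% of nearest genes and 7.87% of all genes. These letters describe gene starts, not the peaks, whose own sequence was searched only where a start window held part of it.

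At the limits of the selection, members just over 1 kb from a gene were near Gstp2 (1.04 kb, 6.56-fold) and Trib3 (1.07 kb, 6.58-fold), and the peaks just excluded were near Ndst3 (0.994 kb, 5.85-fold), Gm34733 (0.973 kb, 5.07-fold) and Ppp2r2a (0.961 kb, 4.39-fold). At the 50 kb limit, peaks near Lrig3 (49.9 kb, 7.31-fold), Cstad (49.8 kb, 6.81-fold) and Gm15319 (49.8 kb, 4.15-fold) were kept, and those near Lsm14a (50.1 kb, 7.31-fold), Duxbl3 (50.5 kb, 12.4-fold) and Hivep1 (50.5 kb, 4.39-fold) were not. Overlap with an untreated peak removed 16 doxycycline peaks of this location class, among them 28.2-fold near Ryr2, the ryanodine receptor of heart muscle (25.9 kb), and 27.8-fold near Sln, sarcolipin (4.32 kb), a strength that only the peaks near Blcap and Nppb exceeded within the set. Of the 828, 36 (4.35%) lay within 10 kb of an untreated peak and 142 (17.1%) within 50 kb.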

How the data were processed

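Tagged GLI3R was pulled down with streptavidin from mouse cardiac progenitors, in 2 conditions with 1 deposited peak list each. Samples were grouped by their titles, which name GLI3R although the treatment label names GLI1. The submitters' processing notes list SAMtools 1.5, MACS2 2.1.1 and Bowtie2 2.3.2 with build mm10. Program settings, input use and any pooling of pull-downs were not given in the sources used here. For single peaks, the fold enrichment is a linear ratio deposited by the authors, and the −log10 p and −log10 q are the authors' deposited values. All 3 belong to single peaks and were used for description, ranking and filtering. Counts of peaks at a given −log10 q or pileup were also set beside each other between the 2 lists, whose local expectations differ, as a description only.

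Rows with the same interval were merged at their strongest summit, and coordinates count from 1. The pileup was worked back as the whole number for which the deposited −log10 p was met within 0.01 by a Poisson upper tail, taking the fold as pileup plus 1 over local expectation plus 1. This held for all 828 peaks of the set. A gene was an interval of the RefSeq table (GRCm38.p6; 21631 protein-coding genes on 20 chromosomes, 17274 with a strand), and distances run from the peak midpoint. Exons and introns were not analysed here. Start windows run from 250 bases before to 50 after a start.

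Shares carry exact Clopper-Pearson 95% intervals and densities exact Poisson ones, for counting error only. Depth is unknown and replicates could not be compared, so no test was run. Location, overlap and pileup steps were checked on simulated data (2000 of 2000 classes and 2000 of 2000 pileups recovered). The simulated pileups followed the same formulas, and the simulated distances lay away from the 1 and 50 kb limits. The check therefore covers the arithmetic only, and cannot show that the deposited values follow those formulas. Python 3.11.15, pandas 2.3.3 and scipy 1.17.1 were used. The members and the 13 gene lists were chosen with earlier results of these data known. Named genes were those nearest the 24 strongest peaks, a gene within 50 kb on their other side, genes with 3 or more peaks (at most 8), up to 4 genes per list, and 3 peaks at each limit, of which 5 genes are not reported here. Further list genes, the excluded peaks and the windows other than that of Acp6 were added after their values were seen. Alternatives were another −log10 q, distance or rank limit, smaller or larger windows and looser motifs.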

Additional observations from a re-analysis of the deposited data

How the results depend on the processing

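Most peaks rest on fewer than 10 fragments, so small contrasts in fold are within counting error, and neighbouring genes can share a peak. Of 45 alternative values over 7 results, 29 stayed within the counting interval or 1.5 times the count and 16 moved. The 828 peaks became 301 with a stricter −log10 q (5 or more), 256 within the 1000 strongest doxycycline peaks and 520 with a limit of 20 kb. The median fold of 5.81 became 7.31 with the stricter −log10 q, 8.04 among the 1000 strongest and 6.07 with pileups of at least 6, an alternative chosen after seeing the data. The 1583 genes with a peak within 50 kb became 391 at 10 kb, 2614 at 100 kb, 775 with the nearest gene alone, 610 with the stricter −log10 q and 509 among the 1000 strongest. The upstream share of 52.5% became 46.5% with the stricter −log10 q. The motif share of 0.499% became 15.8% for the core ACCACC and 8.49% with 1 mismatch, since both patterns include more sequences. The 119 peaks with another within 50 kb became 45 within 10 kb and 22 with the stricter −log10 q, where fewer peaks entered. The motif search in the peaks themselves, over 100 bases at the summit or the whole interval, was not run, as no genome sequence was used here. No paired analysis was possible because the peak lists carry no values per replicate.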
